A study of Mus musculus with 28 samples.

Results

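A set of 1983 narrow stretches of the mouse genome gave an open-chromatin peak in each of 28 libraries, from untreated fibroblasts to cells 10 days into reprogramming. They were found by merging all overlapping peaks of the 28 libraries on chromosomes 1 to 19 and X (overlap of 1 bp or more) and keeping the merged regions that had a peak in every library and a merged width under 600 bp. They are 1983 of 172177 merged regions, 109954 of which were called in at least 2 libraries. A total of 7740 regions of any width were called in all 28 libraries, termed constant regions here, and the other 5757 of these were 600 bp wide or more. The members were thus chosen by calling status and width, both measured in these libraries, and both are given as descriptions with no test.

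Accessibility was profiled by ATAC-seq (a transposase inserts adapters into exposed DNA) in primary mouse embryonic fibroblasts (MEFs) from embryonic day 12.5 of the strain background V6.5 129XBI/6. Every group shared the same genotype, Tet2-/- with a doxycycline-inducible OKSM cassette (Oct4, Klf4, Sox2 and Myc) and the rtTA activator, so the MEF controls lacked Tet2 as well. The 7 groups had 4 libraries each: untreated MEFs, whose isolation label reads None although the shared protocol speaks of cells after FACS, and cells at day 5 and at day 10 of reprogramming that carried an empty pMXs retrovirus, Tet2-WT or Tet2-E, which the series calls a stalling mutant. Reprogramming cells grew on Mito-C-treated MEF feeder cells in 2i/LIF medium with doxycycline and were sorted by SSEA1-RFP. The passage from MEF to day 5 therefore joins reprogramming, infection, medium, feeders and the SSEA1-RFP sort, which cannot be told apart. Whether the MEFs were sorted in any other way is not clear from the labels. The labels do not say whether the 4 libraries of a group came from separate cultures, so p-values measure a spread that may be technical. The cell type labels were not checked against marker genes, since no annotation of the files' build (mm9, in which all coordinates are given) was used here, and for the same reason no gene is named and no sequence is printed for any region.

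Most accessible DNA of a mammalian cell lies at promoters, enhancers and sites held by architectural factors. Promoters of housekeeping genes and sites of the insulator protein CTCF are textbook examples of chromatin that is open in nearly all cell types, whereas enhancers differ more between them. Reprogramming closes many fibroblast enhancers and opens enhancers of pluripotent cells. TET enzymes oxidise the methyl group of 5-methylcytosine in successive steps, and a stalling mutant is one that does not carry the oxidation through to its last products. Whether the narrow constant regions belong to any of these classes was not tested. No filter for sequence that is hard to map was applied here.

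The narrow constant regions were 153 to 599 bp wide, with a median of 508 bp, against a median of 803 bp for the wide constant regions. They made up 25.6% of the constant regions. All peaks of a library together covered a median of 57.4% of a member's merged width (median over libraries, then over members). The narrowest lay at chrX:166650160-166650312 (153 bp), chr5:147478159-147478314 (156 bp) and chr10:94055140-94055301 (162 bp). Just inside the limit, at 599 bp, lay chr1:74378847-74379445, chr4:59796383-59796981 and chr4:133684435-133685033, with median folds of 8.83, 12.7 and 7.26. Just outside it, at 600 bp, lay chr1:173080412-173081011, chr1:182125859-182126458 and chr2:26153730-26154329, with median folds of 10.4, 12.1 and 9.40. The fold of a peak is the authors' value, the height of the read pileup at its summit over the local background of its own library, each with 1 added. The limit thus fell within a continuous range of widths and folds. A further 902 regions under 600 bp were called in 27 libraries and 799 in 26.

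Members lay on all 20 chromosomes considered. Of the regions called in at least 2 libraries, 1.80% were members, from 1.23% on chromosome 18 and 1.27% on chromosome 13 to 2.53% on chromosome 7 and 2.61% on chromosome 11. Chromosome 11 held 184 members, chromosome 7 held 165 and chromosome X held 50. The median distance from a member to the nearest other member was 187 kb. The nearest constant region of any width lay at a median of 43.5 kb, and 300 members (15.1%) had one within 10 kb. From a wide constant region the nearest constant region lay at a median of 54.4 kb, and 8.46% had one within 10 kb.

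Typical members were about as enriched as typical wide constant regions, but the highest folds belonged to narrow ones. The median fold over 28 libraries was 9.06 for the members (range 4.99 to 36.3) and 9.29 for the wide constant regions (4.91 to 16.6). A median fold of 20 or more was reached by 16 members and by 0 of the 5757 wide regions. A median fold of 15 or more was reached by 37 members (1.87%) and by 26 wide regions (0.452%). Of these 37 members, 24 were under 300 bp wide, although only 69 members were that narrow. Within the complete peak list of each library, the median member stood at a median percentile of 83.0 by fold. In every library, 657 members (33.1%) stood above the median of the list, and 62 (3.13%) were among its top 10%. Members had to be called in every library, and each was represented by its highest fold there. Both favour a high place in the list, and the places of the wide regions were not taken. Height and background can be read separately: the median summit pileup was 21 in members and 23.5 in wide regions, and the median local background was 1.32 and 1.65.

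**Figure D1:**
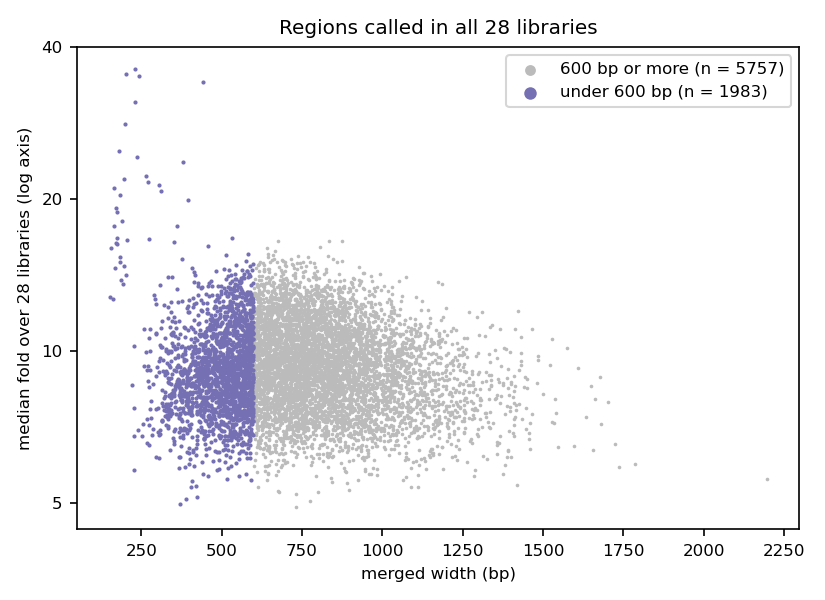
Median fold over the 28 libraries (vertical, log axis) against merged width in bp (horizontal) for the 7740 regions called in every library, with the 1983 members in purple and the 5757 wide regions in grey. The 16 regions at a fold of 20 or more are all under 600 bp wide, most of them near the left edge.

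The strongest members formed a small set of short, steep peaks. chr6:49186416-49186644 had the highest median fold, 36.3, with 24.9, 18.3, 25.5 and 29.1 in the 4 MEF libraries, 32.2 to 36.8 (median 34.6) at day 5 and 35.8 to 41.3 (median 37.5) at day 10. Folds are each library's own values and carry no test between libraries. By rank among the constant regions of the same library, this region stood at the 99.1 percentile or above in all 28. Its rank still passed as higher at day 10 than in MEFs, by 0.254 percentile points (limma, adjusted p = 0.044), since steps near the top of the ranking weigh more on the normal scale. chr1:104524738-104524938 followed at 35.4, with 23.5, 20.8, 25.1 and 21.3 in MEFs, 30.3 to 40.1 at day 5 and 34.4 to 41.6 at day 10. It had no other region called in at least 2 libraries within 50 kb. chr11:121843640-121843881 had a median fold of 35.2, with 37.0, 33.3, 40.5 and 37.0 in MEFs, 29.6 to 37.0 at day 5 and 31.6 to 38.2 at day 10. Its rank did not pass in the comparison of MEFs with either later day described below (limma, adjusted p = 0.395 and 0.206). The next 6 were chr5:60433905-60434346 (median fold 34.2), chr5:152537085-152537314 (31.2), chrX:125591051-125591248 (28.2), chr9:110183723-110183903 (24.9), chr5:148422975-148423212 (24.3) and chr8:15519764-15520142 (23.7). The last of the 10, chr7:137977892-137978157 (22.3), had folds of 10.2, 5.03, 12.1 and 6.42 in MEFs, and is described with the comparison of days.

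Their peaks were also placed with high precision. For chr1:104524738-104524938, the 28 summits fell within 4 bp of each other (SD 0.957 bp). The 10 strongest members had summit SDs of up to 18.3 bp, and each had all 28 summits within 50 bp of its median position. Over all members the SD of the summit position had a median of 37.3 bp, from 0.957 to 142 bp, and it was 62.8 bp in the wide constant regions, where summits have more room to move. All 28 summits lay within 50 bp of their median in 188 members (9.48%) and in 107 wide regions (1.86%). In 1041 members (52.5%) each library had a single peak, against 400 of the wide regions (6.95%). Members were chosen by merged width, which bounds summit positions and leaves less room for further peaks. These differences from the wide regions are therefore not independent of the rule. Across the 1983 members, which share libraries and depth, summit SD rose with width (Spearman's rho = 0.36, a description over regions). The 497 members of up to 435 bp had a median summit SD of 28.3 bp, and the 492 members of 557 bp or more had 44.5 bp.

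To compare days, the fold of each constant region was converted to its percentile rank among the 7740 constant regions of the same library, from 0 (lowest) to 100 (highest). This gives lists of equal length, and says which regions gained or lost strength relative to the other constant regions, not whether accessibility changed in absolute terms. In bulk libraries a change in the share of cells open at a site and a change of openness within each cell cannot be told apart. Members had a mean percentile of 47.0 to 49.7 in the 4 MEF libraries, 48.8 to 51.3 in the 12 day 5 libraries and 46.1 to 49.7 in the 12 day 10 libraries. By the plain ratio of pileup to background their mean percentile was 53.2 to 55.5 over the 28 libraries, so members lay near the middle by fold and above it by the plain ratio. Depth moved with the days: the median local background at members was 0.954 to 1.62 in MEFs, 1.36 to 1.81 at day 5 and 0.752 to 1.49 at day 10. Lists held 41450 to 72332 peaks in MEFs, 41580 to 60361 at day 5 and 27918 to 50733 at day 10. The part of depth in the rank differences below was not tested apart from ranking the plain ratio of pileup to background, which is given beside them.

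Members also differed in how much their rank varied over the 28 libraries. The 5 with the lowest SD of their rank score (the percentile on a normal scale) were chrX:125591051-125591248 (SD 0.0759), chr5:152537085-152537314, chr5:148422975-148423212, chr9:3258775-3259084 and chr1:195053973-195054157 (SD 0.162). The first stood at the 99.9 percentile in each MEF library. The last ranged from 98.8 to 99.9 over all libraries. All 5 stood near the top, where a rank has no room to rise, so a low SD there does not show that the fold stayed the same. The median SD was 0.675 over the members and 0.575 over the wide regions. The 5 with the highest SD, 1.27 to 1.39, were chr7:137977892-137978157, chr5:103640171-103640459, chr8:109241961-109242485, chr3:107690633-107691184 and chr8:81674504-81674858. The first 4 of these are described below. chr8:81674504-81674858 stood at percentiles of 84.7, 36.0, 97.7 and 97.4 in MEFs, 2.25 to 95.7 (median 62.8) at day 5 and 1.11 to 82.4 (median 12.3) at day 10, so that its MEF and later libraries overlapped. It was lower at day 10 than in MEFs (limma, adjusted p = 0.0026), and did not pass from MEF to day 5 (limma, adjusted p = 0.159).

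The first comparison of days asks which members gained or lost rank from MEFs to day 5. By limma's moderated test on the rank scores, adjusted over all 7740 constant regions, 165 members were higher at day 5 and 100 were lower. That is 8.32% and 5.04% of the members, where 5.83% and 4.9% of all constant regions were called in these directions. Ranking the plain ratio of pileup to background turned the balance, with 113 members higher and 142 lower, and did so over all 7740 constant regions too, with 374 higher and 439 lower. The sign of the difference itself was the same by the plain ratio for 164 of the 165 and all of the 100, and 67 of the 165 and 48 of the 100 were called by fold, by the authors' -log10 q and by the plain ratio alike. The MEF and day 5 libraries did not overlap in 66 members that were higher and 46 that were lower, against 2.31% and 2.64% of all constant regions. In each comparison of days the leading members were picked by the size of their change among those called. That choice favours groups that do not overlap, so its absence in them is a description alone. Over all members the median change in mean percentile was 1.12, and over all constant regions it was -0.37. Without any 1 of the 4 MEF libraries, 62 to 69 members were lower instead of 100, and 121 to 128 were higher instead of 165.

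**Figure D2:**
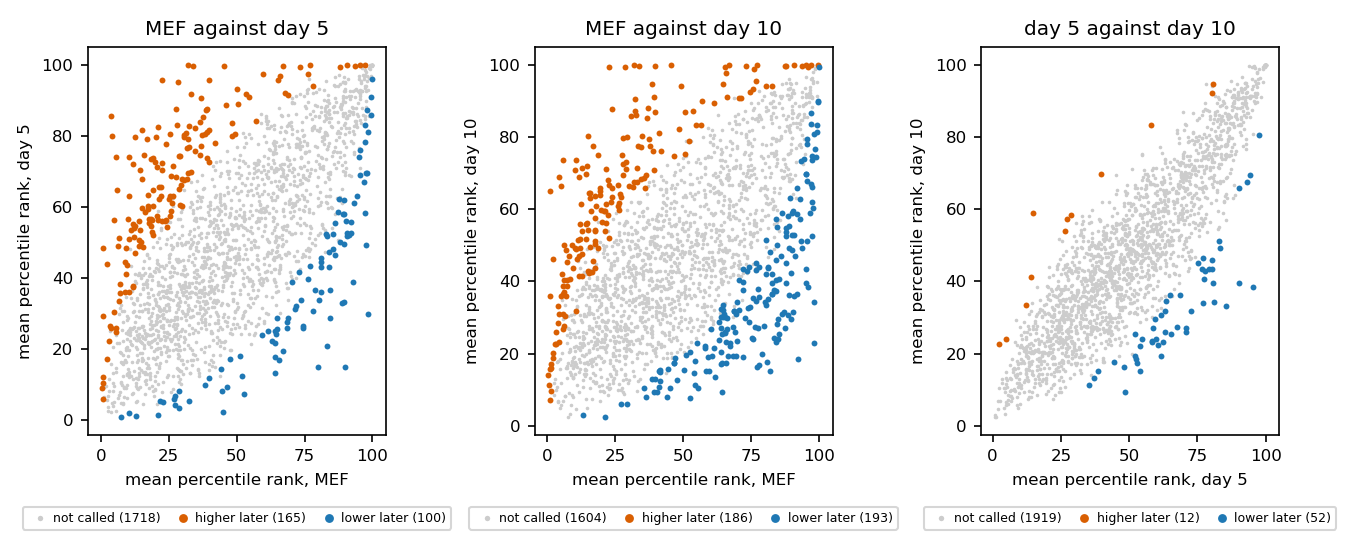
Mean percentile rank of each of the 1983 members at the later stage (vertical) against the earlier one (horizontal), for MEF against day 5, MEF against day 10 and day 5 against day 10, with members that passed the adjusted threshold in orange (higher later) or blue (lower later). The cloud is wide in both comparisons with MEFs, with 265 and 379 members called, and narrow between the days, with 64.

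The largest rise belonged to chr3:107690633-107691184. It stood near the bottom in MEFs, at percentiles of 0.530, 1.22, 0.614 and 12.8, and at 68.5 to 98.2 (median 87.1) at day 5. No library overlapped, and its mean went from 3.80 ± 6.03 (SD, n = 4) to 85.6 ± 9.18 (SD, n = 12; limma, adjusted p = 3.16e-08). At day 10 it fell back to 2.56 to 64.8 (median 32.5), which makes it high at day 5 between lower values on both sides. chr10:3221087-3221664 had MEF percentiles of 4.19, 2.19, 4.90 and 5.69, and 19.6 to 97.0 (median 87.9) at day 5, with no overlap (limma, adjusted p = 1.83e-07).

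A second kind of rise ended at the very top of the constant regions. The strong member at chr7:137977892-137978157 had widely spread MEF percentiles of 46.4, 2.06, 70.9 and 8.73. At day 5 it stood at 99.5 to 99.9 and at day 10 at 99.8 to 99.9, above every MEF library (limma, adjusted p = 1.44e-11 for day 5). chr10:84488649-84489010 went from 17.1, 29.0, 36.7 and 52.9 in MEFs to 99.0 to 99.9 (median 99.7) at day 5 (limma, adjusted p = 2.91e-12). chr10:94334735-94334904, a region of 170 bp, went from 17.1, 30.5, 22.4 and 20.2 to 79.0 to 99.7 (median 98.0). chr14:119686107-119686290, of 184 bp, went from 3.64, 54.3, 28.2 and 27.8 to 70.7 to 99.7 (median 98.0). These 4 did not overlap between MEFs and day 5 and passed by the plain ratio too.

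The remaining leading rises went from the lower part of the ranking to its upper part. chr11:87475827-87476400 rose from a mean percentile of 5.63 ± 6.97 (SD, n = 4) to 74.0 ± 18.5 (SD, n = 12). chr17:46633541-46633925 rose from 10.3 ± 10.6 to 74.1 ± 21.3, and it overlapped, with a day 5 library at 16.4 below a MEF library at 25.5. chr6:56851824-56852416 went from 12.7 ± 6.26 to 79.5 ± 11.2, and chr2:112124441-112125015 from 15.1 ± 14.5 to 81.7 ± 15.9. Both passed by fold (limma, adjusted p = 4.5e-05 and 6.85e-05) but not by the plain ratio (limma, adjusted p = 0.0899 and 0.266).

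Among the members that fell, chr15:99919970-99920422 changed most. Its MEF percentiles were 86.5, 98.0, 97.4 and 78.4, and its day 5 percentiles were 0.329 to 50.2 (median 6.72). The groups did not overlap, and the mean fell by 75.1 points (limma, adjusted p = 9.69e-07). chr8:109241961-109242485 stood at 99.7, 99.8, 93.6 and 99.8 in MEFs and at 5.14 to 48.7 (median 29.5) at day 5 (limma, adjusted p = 3.16e-08). This region was among the strongest constant regions of MEFs and stayed in the lower part of the ranking for most day 10 libraries, at 2.60 to 66.7 (median 16.2).

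The other leading falls were similar in size. Mean percentiles in MEFs and at day 5 were 79.8 ± 7.38 and 14.8 ± 10.9 for chr15:83998040-83998486 (SD, n = 4 and 12, as for those that follow). They were 83.3 ± 8.70 and 20.6 ± 15.7 for chr5:120961026-120961428, and 89.6 ± 6.57 and 33.2 ± 23.7 for chr18:56636707-56637222. They were 88.7 ± 9.32 and 32.8 ± 15.9 for chr19:18745019-18745556, and 84.4 ± 8.39 and 28.6 ± 19 for chrX:7339557-7340051. chr11:66838340-66838913 went from 92.8 ± 4.60 to 38.9 ± 18.1, chr5:139063866-139064331 from 64.2 ± 9 to 13.2 ± 7.50, and chr12:31269191-31269743 from 65.8 ± 8.73 to 16.8 ± 13.5. All 10 leading falls also passed by the plain ratio and by -log10 q. The region on chromosome 18 was the one of the 10 whose groups overlapped, through a day 5 library at 91.1.

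**Figure D3:**
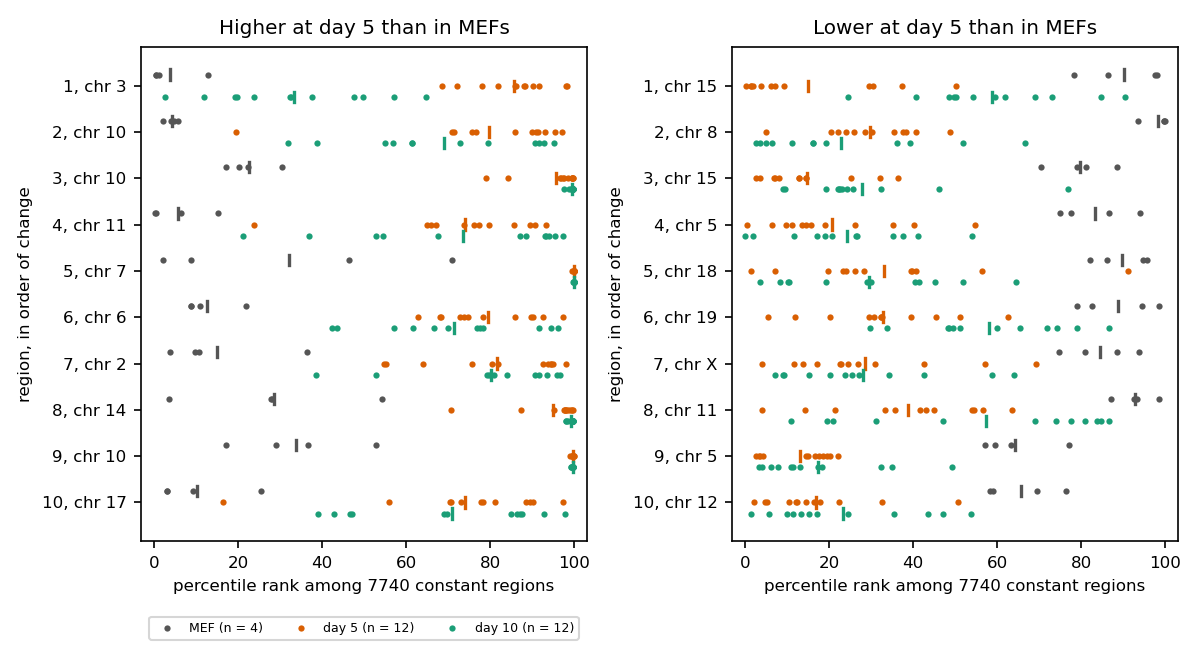
Percentile rank among the 7740 constant regions (horizontal) of the 10 members with the largest rise (left) and fall (right) from MEFs to day 5, with 1 point per library, a vertical bar at each group's mean, and MEFs in grey, day 5 in orange and day 10 in green. On the left the day 5 points of the region on chromosome 3 sit between 68.5 and 98.2, to the right of all 4 MEF points, and its day 10 points move back.

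From MEFs to day 10, 186 members were higher and 193 were lower. These are 9.38% and 9.73% of the members, where 8.46% and 7.92% of all constant regions were called. By the plain ratio 145 were higher and 194 lower, and over all 7740 constant regions 525 were higher and 584 lower. Of the members called by fold, 87 of the 186 and 84 of the 193 were called by all 3 ranked values. MEF and day 10 libraries did not overlap in 56 members that were higher and 58 that were lower, against 2.43% and 2.8% of all constant regions. The median change was 0.102 over the members and 0.0509 over all constant regions. Without any 1 MEF library, 128 to 148 members were lower instead of 193, and 130 to 149 were higher instead of 186. The comparison shares its MEF libraries with that of day 5, so the values of both days are given side by side and not counted as independent.

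Several members that were at the top at day 5 had the same place at day 10. chr10:94334735-94334904 stood at 97.6 to 99.7 (median 99.6) at day 10, a rise of 76.8 points over MEFs (limma, adjusted p = 1.58e-10). chr14:119686107-119686290 stood at 98.0 to 99.7 (median 99.5; limma, adjusted p = 8.94e-10). chr10:84488649-84489010 stood at 99.1 to 99.8, and the mean of chr7:137977892-137978157 was 67.8 points above MEFs at both days. chr11:87475827-87476400, chr2:112124441-112125015 and chr10:3221087-3221664 had mean percentiles of 73.5 ± 26.2, 80.3 ± 17.7 and 69.0 ± 21.5 at day 10 (SD, n = 12).

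The 3 leading rises not yet named included the member that started lowest of the 10. chr11:5641056-5641566 had MEF percentiles of 0.988, 0.465, 0.362 and 1.72, among the weakest constant regions of every MEF library. It had 4.92 to 92.8 (median 58.6) at day 5 and 44.7 to 93.6 (median 61.0) at day 10, with no overlap at either day (limma, adjusted p = 1.55e-06 for day 10). chr9:75531570-75532063 rose from a mean of 23.9 ± 15.8 (SD, n = 4) to 87.8 ± 9.40 (SD, n = 12), and chr9:65453325-65453757 from 10.6 ± 8.35 to 73.5 ± 16.0. The last did not pass by the plain ratio (limma, adjusted p = 0.0522). All 10 leading rises were free of overlap, as were 54 of all 186 called rises. The 10 were picked by the size of their change, which favours groups that do not overlap.

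Falls by day 10 were led by the region at chr8:109241961-109242485, whose mean was 75.3 points lower than in MEFs (98.2 ± 3.11 and 22.9 ± 20.9; SD, n = 4 and 12; limma, adjusted p = 1.77e-09). chr1:89447484-89448040 stood at 94.7, 98.4, 87.8 and 87.5 in MEFs, at 7.16 to 83.7 (median 58.4) at day 5 and at 3.88 to 40.7 (median 14.7) at day 10. Its day 10 libraries lay below all MEF libraries (limma, adjusted p = 6.84e-06). chr13:21509295-21509874 stood at 99.6, 98.0, 96.0 and 99.3 in MEFs, at 61.8 to 97.6 (median 81.1) at day 5 and at 5.99 to 86.9 (median 29.7) at day 10 (limma, adjusted p = 5.63e-07). In these last 2 the day 5 values lay between those of MEFs and day 10.

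The 7 other leading falls started from mean MEF percentiles of 77.1 to 87.4. They were chr13:103886747-103887226 (80.9 ± 19.6 in MEFs and 17.6 ± 15.7 at day 10; SD, n = 4 and 12), chr8:37247131-37247496 (78 ± 9.58 and 17 ± 19.3) and chr19:16460891-16461435 (77.1 ± 19.7 and 16.2 ± 13.4). chr4:33377069-33377570 went from 84.0 ± 17.2 to 23.2 ± 18.0, and chr8:106959881-106960297 from 84.8 ± 9.78 to 24.0 ± 9.08. chr1:41446855-41447420 went from 82.0 ± 15.0 to 15.3 ± 16.5 and chr9:45928062-45928557 from 87.4 ± 12 to 27 ± 21.3. This last pair passed by fold but not by the plain ratio (limma, adjusted p = 0.123 and 0.103). MEF and day 10 libraries overlapped slightly in 3 of the 7, those on chromosome 13 and chromosome 1 and the one on chromosome 9.

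From day 5 to day 10 few members moved, and more fell than rose. By fold 12 were higher and 52 lower at day 10, which is 0.605% and 2.62% of the members, against 0.698% and 1.34% of all constant regions. The median change was -1.46 over the members and 0.583 over all constant regions. The counts depended on the value ranked. There were 33 higher and 77 lower by -log10 q, 3 and 12 by the plain ratio, and 19 and 40 when members were ranked among themselves. Over all 7740 constant regions there were 120 higher and 200 lower by -log10 q, and 7 and 18 by the plain ratio. In all of the 64 the plain ratio had the same sign. Libraries of the 2 days did not overlap in 0 members that were higher and in 1 that was lower, against 0% and 0.0129% of all constant regions. Without day 5 Tet2-E replicate 2, day 5 empty vector replicate 4 or day 10 Tet2-WT replicate 4, 5, 7 and 7 members were higher in place of 12.

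chr5:103640171-103640459 fell most. It stood at 99.8, 91.5, 93.3 and 98.8 in MEFs and at 89.0 to 99.7 (median 96.1) at day 5, then at 2.10 to 91.5 (median 37.4) at day 10. A single stretch of 289 bp was thus near the top of the ranking until day 5 and scattered at day 10 (change in mean percentile -56.9; limma, adjusted p = 7.4e-06, and 0.00409 by the plain ratio). The transient region at chr3:107690633-107691184 was the 1 member whose day 5 and day 10 libraries did not overlap, at 68.5 or more and at 64.8 or less (limma, adjusted p = 9.67e-05). It did not pass by the plain ratio (limma, adjusted p = 0.0789). chr16:85756282-85756822 went from 80.6 to 99.6 (median 88.9) to 13.5 to 93.7 (median 28.6), and chr13:21509295-21509874 from a mean of 80.9 ± 9.54 to 34.2 ± 23.1 (SD, n = 12 each). Neither of these passed by the plain ratio (limma, adjusted p = 0.187 and 0.151).

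Of the next 6 falls, 2 also passed by the plain ratio. chr2:165739784-165740220 went from a mean of 61.7 ± 20.8 to 19.5 ± 15.2, and chr2:30319370-30319841 from 70.7 ± 18.5 to 25.9 ± 15.7 (SD, n = 12 each; limma, adjusted p = 0.000539 and 0.0472 by the plain ratio). The others lay at chr12:53919511-53920039, chr4:34357954-34358534, chr10:67375112-67375585 and chr5:20878191-20878708. Their changes in mean percentile were -43.7, -43.1, -41.3 and -40.9, and their adjusted p by the plain ratio was 0.0789 to 0.307 (limma).

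The largest rise between the days was at chr15:99919970-99920422, the region with the largest fall by day 5. After 78.4 to 98.0 in MEFs and 0.329 to 50.2 (median 6.72) at day 5, it stood at 24.5 to 90.5 (median 56.9) at day 10 (limma, adjusted p = 0.000255, and 0.0114 by the plain ratio). It is the mirror image of the region on chromosome 3, low at day 5 between higher values on both sides. chr9:106789337-106789821 had 0.304, 9.06, 1.48 and 0.0840 in MEFs, 0.0581 to 8.16 (median 1.79) at day 5 and 1.30 to 60.5 (median 21.0) at day 10, so this member was among the weakest until day 5 (limma, adjusted p = 0.000941, and 0.0406 by the plain ratio). chr4:34497596-34498115 rose from a mean of 4.99 ± 3.88 to 24.0 ± 21.3 (SD, n = 12 each) and also passed by the plain ratio (limma, adjusted p = 0.031). The other 7 leading rises, of 21.1 to 30.2 points, passed by fold and not by the plain ratio (limma, adjusted p = 0.0608 to 0.362). They were chr2:128792765-128793333, chr2:26264429-26264968, chr5:143026861-143027391, chr5:124990460-124990940, chr9:122026130-122026713, chr9:50547206-50547781 and chr2:167014266-167014824.

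**Figure D4:**
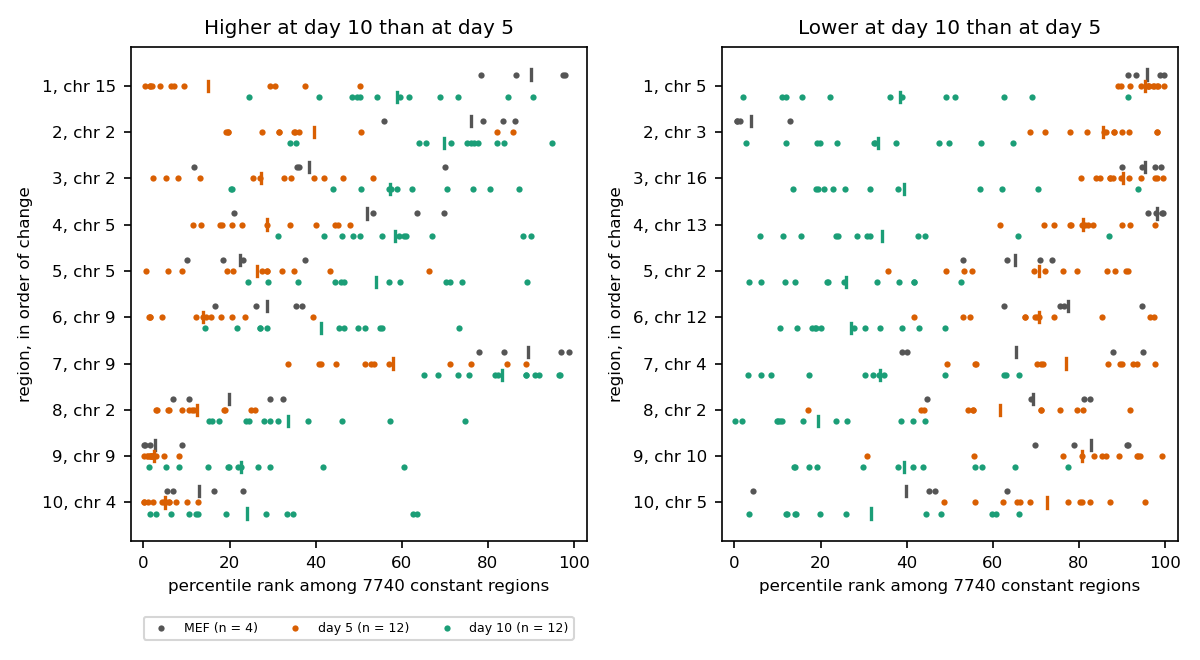
Percentile rank among the 7740 constant regions (horizontal) of the 10 members with the largest rise (left) and fall (right) from day 5 to day 10, with 1 point per library and a vertical bar at each group's mean, MEFs in grey, day 5 in orange and day 10 in green. Day 5 and day 10 points overlap in every region but the one on chromosome 3, whose day 5 points start at 68.5 and whose day 10 points end at 64.8.

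The vectors were compared in pairs at each day to ask whether returning wild-type or stalling Tet2 altered the ranking of these regions. No member passed in any of the 6 contrasts (limma, 0 members and 0% of all constant regions). At unadjusted p under 0.05 there were 110 members for Tet2-WT against empty vector, 87 for Tet2-E against empty vector and 105 for Tet2-E against Tet2-WT at day 5, and 163, 147 and 149 at day 10. Some tests pass such a cut by chance. The share of all constant regions that passed it was not counted, so these counts are not read as a result about the members. The smallest adjusted p was 0.999 at day 5 and 0.261 at day 10. Ranking -log10 q, the plain ratio, the members alone or the untransformed percentile also gave 0.

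The members with the smallest p in each contrast show how far single libraries of a vector spread. Choice by p favours groups that do not overlap. How many constant regions had no overlap between vectors was not counted, so its absence is a description alone. At day 5, chr4:97417751-97418314 stood at 4.83, 1.81, 36.6 and 43.9 with the empty vector and at 77.4, 86.7, 51.9 and 66.3 with Tet2-WT (unadjusted p = 0.000513, adjusted p = 0.999, limma). chr13:21622661-21623186 stood at 31.8, 74.7, 74.3 and 69.3 with the empty vector and at 99.1, 97.0, 91.7 and 98.9 with Tet2-E. Neither pair of groups overlapped, and neither passed. chr11:53138034-53138411 stood at 39.1, 1.05, 0.0840 and 46.9 with Tet2-WT and at 81.3, 98.7, 95 and 19.7 with Tet2-E, where the last library lay among those of Tet2-WT. That library carries replicate number 4, and without the libraries numbered 4 in all groups this member passed (limma, adjusted p = 0.0338).

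At day 10 the 3 leading members did not pass either. chr7:95578601-95579168 stood at 81.3, 57.8, 34.1 and 45.6 with the empty vector and at 6.17, 16.2, 15.5 and 1.74 with Tet2-WT (unadjusted p = 0.000185, adjusted p = 0.261, limma). chr12:86337014-86337481 stood at 96.8, 97.6, 62.9 and 85.3 with the empty vector and at 60.6, 42.2, 45.3 and 12 with Tet2-E. chr11:94840138-94840590 stood at 93.5, 87.1, 97.9 and 53.1 with Tet2-WT and at 49.4, 7.27, 17.4 and 14.3 with Tet2-E. The groups did not overlap in any of the 3, which were also picked by p (limma, adjusted p = 0.263 and 0.295 for the second and the third). Without day 10 empty vector replicate 3, 1 member passed for Tet2-E against the empty vector. Whether the change from day 5 to day 10 differed between vectors was also tested, after the data were seen. The interaction called 0 members for each pair of vectors (limma, smallest adjusted p 0.339, with 120 to 134 members at unadjusted p under 0.05). The unadjusted count over all constant regions was not taken here either.

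The position of the summit within each region was compared in the same way, since a narrow region can hold more than 1 site of cutting. From MEFs to day 5 the summit of 44 members moved (2.22%), against 3.33% of all constant regions, 22 in each direction along the chromosome. From MEFs to day 10 it moved in 56 (2.82%), against 3.9%. The width limit bounds how far a member's summit can move, so these lower shares are not independent of the rule. The shifts of these members were 51.9 to 253 bp (median 99.5 bp) by day 5 and 45.3 to 208 bp (median 112 bp) by day 10. The counts were smaller where each library had a single peak, at 12 and 20 of 1041 members, beside 19 and 32 of the 1441 constant regions of that kind. Without any 1 MEF library, the summit moved in 25 to 34 members by day 5 instead of 44, and in 33 to 44 by day 10 instead of 56. Between day 5 and day 10 the summit moved in 0 members (limma, smallest adjusted p 0.274), against 0.0129% of all constant regions. It moved in 0 members also by the summit of the highest -log10 q. At unadjusted p under 0.05 there were 127 members (limma), and the count over all constant regions was not taken.

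In the region at chr17:27936939-27937494 the summits of the 4 MEF libraries lay 441, 462, 440 and 430 bp from the region's start. At day 5 they lay at 148 to 247 bp (median 221.5) and at day 10 at 176 to 385 bp (median 242.5). No later library reached the MEF positions, and the shift was -228 ± 25.3 bp by day 5 and -189 ± 25.3 bp by day 10 (estimate ± SE; limma, adjusted p = 3.19e-06 and 3.99e-05). chr15:78971326-78971893 had MEF summits at 219, 94, 241 and 239 bp, and at 280 to 426 bp at day 5 and 340 to 432 bp at day 10, a shift of 190 ± 24.3 bp by day 10 (limma, adjusted p = 2.23e-05). In chr4:80510337-80510921 the MEF summits at 397, 336, 346 and 464 bp and those of day 5 at 141 to 209 bp did not overlap either, while day 10 spread from 124 to 412 bp.

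The other leading shifts were less clean. None of the named regions with a summit shift, those above and below included, had a single peak in every library. A switch between 2 peaks and a move of 1 peak were not told apart. chr6:117866783-117867369 (-253 bp by day 5) and chr11:79066722-79067271 (251 bp) held 2 peaks in 10 and 12 of the 28 libraries, and chr17:74816031-74816596 (223 bp) in 5. By day 10 the largest shifts were at chr17:49890245-49890835 and chr13:58249684-58250264 (both 208 bp), and chr17:26813177-26813762 followed (-181 bp). Among the vectors, in a test added after the data were seen, 1 member moved between the empty vector and Tet2-WT at day 10, against 0.0388% of all constant regions. On chr1:21208526-21208994 the summits lay at 363, 313, 320 and 384 bp with the empty vector, at 148, 135, 88 and 165 bp with Tet2-WT and at 185, 309, 160 and 319 bp with Tet2-E. Empty vector and Tet2-WT did not overlap (shift -211 ± 29.4 bp, estimate ± SE; limma, adjusted p = 0.00202), and the call was lost without the libraries numbered 1.

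**Figure D5:**
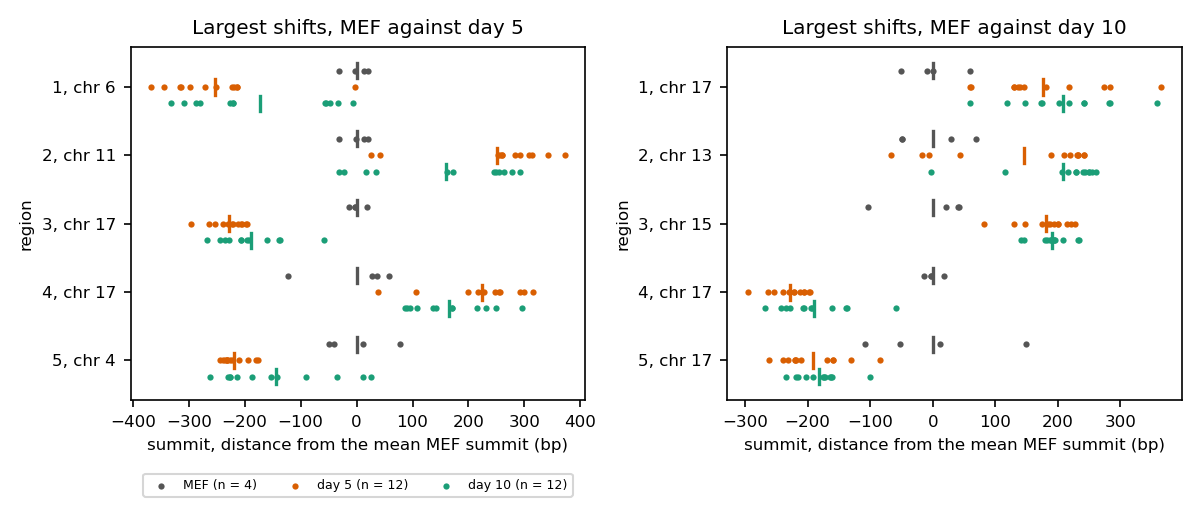
Summit position relative to the mean MEF summit of the same region, in bp (horizontal), for the 5 members with the largest shift from MEFs to day 5 (left) and to day 10 (right), with 1 point per library and a vertical bar at each group's mean, MEFs in grey, day 5 in orange and day 10 in green. In the region at chr17:27936939-27937494, the third from the top on the left and the fourth on the right, all 24 later points lie to the left of the 4 MEF points.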

How the data were processed

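ATAC-seq peak lists of 28 libraries in 7 labelled groups of 4 were used. Per the submitters' processing notes, Bowtie2, SAMtools, bedtools, MACS2 and the build mm9 were used; the sources used here give no versions, settings or read totals. The authors called peaks per library, without pooling. Each deposited list gives a fold ratio per peak, the -log10 p and -log10 q of its summit, a score and the summit position. The lowest deposited -log10 q was 2.0001, so weaker sites are not in the lists.

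Regions were merged with an overlap of 1 bp on 20 chromosomes, and coordinates count from 1. The highest fold of a library in a region was ranked among the 7740 constant regions of that library. Normal scores of the ranks, and summit positions in bp from the region's start, were fitted with limma 3.58.1 (R 4.3.3; 7 group means, robust variance, 2-sided), with Benjamini-Hochberg adjustment over 7740 regions and a threshold of 0.05. Pileup and background were recovered from the deposited fold and p under the caller's Poisson model, with a tolerance of 0.0002 in -log10 p, and 100% of values had a whole-number pileup. The background of single peaks can be ambiguous where rounding allows more than 1 solution. The fit was tested on simulated data. Same-numbered libraries did not deviate together (mean correlation 0.00468 over 84 pairs), so numbers were not treated as pairs.

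Named regions are the 10 members of highest median fold, the 3 narrowest, those at the width limit, the 10 per direction with the largest percentile change among members past the threshold in each comparison of days, the member of smallest p per vector contrast, the 5 largest summit shifts, and the 5 lowest and highest in SD. The members, lists and rules were chosen with earlier results of these data known. Tests of motifs and gene annotation were not run, as no mm9 genome was used here. Alternatives are listed at the end.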

Additional observations from a re-analysis of the deposited data

Results flagged for a closer look

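In 5 of the named members 1 MEF library stood apart from the other 3 in percentile rank, judged by its gap to the nearest library over the range of the group. The check was made in 77 groups of 4 values, and for normally distributed values chance alone gives about 1 in 20. These groups were the MEF percentiles of members named in the comparisons of days, and summaries over members in the libraries of each labelled group. Percentiles are bounded and the named members were picked by their change in rank, so 1 in 20 need not hold for them. All 5 flagged cases came from the MEF percentiles, so 5 of 77 understates their share there. At chr3:107690633-107691184, MEF replicate 4 stood at 12.8 against a lowest value of 0.530. At chr6:56851824-56852416, MEF replicate 1 stood at 21.9 against a lowest value of 8.84, and at chr9:106789337-106789821, MEF replicate 2 stood at 9.06 against a lowest value of 0.0840. The stray library was the lowest in the other 2. At chr8:109241961-109242485, MEF replicate 3 stood at 93.6, where the group's highest value was 99.8. At chr9:45928062-45928557, MEF replicate 3 stood at 69.5, where the highest was 95.3.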

How the results depend on the processing

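No named member changed direction with another ranked value, rank scale or summit choice, with the block or without a replicate number. Named members were not followed without single libraries. None of those with a summit shift had a single peak in every library, so none could be followed in that setting. The number of members was 1958 with peaks of q at most 0.001, 180 where peaks had to cover 50% of a region, 1290 with equal numbers of peaks per library, 925 under 500 bp and 3389 under 700 bp. It was 2565 to 2726 without the libraries of 1 replicate number, and 1999 to 2242 without 1 library, an alternative chosen after seeing the data. Without 1 replicate number, 100 to 120 members were higher and 45 to 66 lower at day 5 than in MEFs, 125 to 142 and 131 to 143 at day 10 than in MEFs, and 3 to 13 and 23 to 43 at day 10 than at day 5. Summits moved in 12 to 29, 16 to 34 and 0 to 1 members, and vector contrasts of rank called 0 to 1. Without 1 library these ranges were 121 to 174 and 62 to 106, 130 to 189 and 128 to 199, 5 to 15 and 40 to 66, 25 to 46, 33 to 58, 0 and 0 to 1. In these runs without 1 library, chosen after seeing the data, summit contrasts of vectors called 0 to 2 members (2 for Tet2-E against empty vector at day 10, without day 10 Tet2-E replicate 1; Tet2-WT against empty vector at day 10, without day 10 empty vector replicate 2 or Tet2-WT replicate 1). Fewer samples enter these fits. From day 5 to day 10, 33 members were higher by -log10 q, 3 by the plain ratio and 19 among members alone. By the plain ratio 12 were lower. Over all constant regions 120 were higher by -log10 q, and 7 were higher and 18 lower by the plain ratio. The cause of these differences was not tested. With a single peak in every library, 12 and 20 summits moved by day 5 and day 10, out of fewer regions tested. With the replicate number as a block, 172 members were higher and 102 lower at day 5, 188 and 192 at day 10, 13 and 54 between the days, and no count moved by over 1.5 times. Numbers did not pair the libraries (correlations of -0.0462 to 0.0664). Of the 10 named members per direction, 8 rises and 10 falls by day 5, 8 and 8 by day 10 and 2 and 3 between the days passed with each other ranked value and rank scale, with the block and without each replicate number. The planned motif window was not run for want of a genome of the build. Depth is known from the lists' background alone, and a region missed in 1 shallow library could not be a member.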

Other observations

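The surroundings of members that gained or lost rank were counted after the data were seen, and differences between these counts were not tested. A complete gain here is a region called in 0 of 4 MEF and all 12 libraries of the later day, and a complete loss is a region called in all 4 MEF and 0 of 12 later libraries. Of all 1983 members, 26.7% had a complete day 5 gain within 50 kb and 26.9% a complete day 5 loss. Of the 165 members higher at day 5, 37 (22.4%) had such a gain nearby and 54 (32.7%) a loss. Of the 100 lower at day 5, 39 (39%) had a gain nearby and 25 (25%) a loss. For day 10 the shares over all members were 15.0% and 38.7%, with 11.8% and 47.3% for the 186 that were higher and 18.7% and 42.5% for the 193 that were lower. Both sides use the same MEF libraries and calling lists, and a peak's local background is estimated from its surroundings, so gains nearby and a lower fold are not independent measures.

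The median local background of the same lists was also taken. Over the 28 libraries it was 1.16 for the members higher at day 5, 1.51 for those lower at day 5 and 1.32 for all members. For the 52 members that were lower at day 10 than at day 5 it was 1.03. For the members higher and lower at day 10 than in MEFs it was 1.33 and 1.28, a small gap in the other direction. The part of background in these calls was not tested.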
